A study of Homo sapiens with 3 samples.

Results

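The smallest p300/CBP peaks called in MDA-MB-231 cells were 100 bp wide, and 934 of them were found again at that same width after depletion of Fra-1. These 934 sites were chosen by their overlap. Each is a siCTL peak of exactly 100 bp on chromosomes 1 to 22 or X that shares at least 1 bp with a siFra-1 peak of exactly 100 bp and with no wider siFra-1 peak. They are 934 of 69042 such siCTL peaks (1.35%, Wilson 95% interval 1.27% to 1.44%), and their partners are 934 of 27431 siFra-1 peaks of 100 bp (3.40%, 3.20% to 3.63%). The overlap and the widths chose the members, so these shares describe the rule and support nothing else. Over all widths the lists held 82762 siCTL and 39167 siFra-1 peaks on these chromosomes.

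MDA-MB-231 is an established human cell line of the basal b, triple-negative class of breast cancer. Transfection was with a control siRNA (siCTL) or with 3 pooled siRNAs that target Fra-1 (siFra-1), each at 4.5 nM. After 72 h the cells were fixed in 1% paraformaldehyde for 7 min, and their chromatin was immunoprecipitated with an antibody that recognizes p300/CBP. Each condition is 1 library of pooled immunoprecipitations, so there is no replicate error to compare with and no p-value is given. The input sample was not analysed here, and the lists do not measure how much Fra-1 was left. All intervals are at 95% and hold the counting error of peaks, which are not replicates. They are too narrow because neighbouring peaks are not independent. The lists hold positions alone, so the depth is unknown and no peak height can be given.

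p300 and CBP are closely related lysine acetyltransferases that transcription factors bring to enhancers and promoters. Fra-1, encoded by FOSL1, joins a Jun partner in the dimer called AP-1, which reads the sequence TGAGTCA and its reverse complement TGACTCA. A peak of 100 bp spans no more than a pair of the 50 bp bins in which the signal was called, and is the smallest width in the lists. The minimum run set in the caller was 50 bp. The comparison asked what distinguishes the narrow siCTL sites called again at the same width from those without siFra-1 overlap.

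The sequences below are on the plus strand of hg19, with AP-1 motifs in capitals. The first 7 are members identical in both lists, taken by the largest number of AP-1 motifs and then by genome order, and the eighth of them follows with its TEAD motif. The last is the member nearest to FOSL1, the silenced gene, and was chosen after its values were seen. Its nearest protein-coding start was that of C11orf68, 5.93 kb away, and that of FOSL1 lay 12.6 kb away.
Intron of LINC02210-CRHR1, chr17:43782902-43783001: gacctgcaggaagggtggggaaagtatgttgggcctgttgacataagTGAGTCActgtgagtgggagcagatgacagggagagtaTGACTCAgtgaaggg
Intron of LMNA, chr1:156093602-156093701: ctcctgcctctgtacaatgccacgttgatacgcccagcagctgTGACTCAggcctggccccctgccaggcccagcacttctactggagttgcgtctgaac
Between genes, near LIMS3, chr2:110654052-110654151: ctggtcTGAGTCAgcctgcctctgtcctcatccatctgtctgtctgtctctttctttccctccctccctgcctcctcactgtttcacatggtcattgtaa
Between genes, near AGFG1, chr2:228331152-228331251: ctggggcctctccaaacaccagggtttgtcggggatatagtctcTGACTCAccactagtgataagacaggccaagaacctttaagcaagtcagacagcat
Intron of OSBPL10, chr3:32004502-32004601: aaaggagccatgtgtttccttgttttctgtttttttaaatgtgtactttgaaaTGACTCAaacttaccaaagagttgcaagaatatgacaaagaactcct
Between genes, near PLSCR2, chr3:146221652-146221751: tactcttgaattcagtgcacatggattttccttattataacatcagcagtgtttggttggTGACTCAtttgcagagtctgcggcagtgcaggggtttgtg
Intron of LINC02273, chr4:153027502-153027601: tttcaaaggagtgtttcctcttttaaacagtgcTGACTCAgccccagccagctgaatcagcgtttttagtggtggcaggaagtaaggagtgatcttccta
Between genes, near FOSL1, chr11:65680552-65680651: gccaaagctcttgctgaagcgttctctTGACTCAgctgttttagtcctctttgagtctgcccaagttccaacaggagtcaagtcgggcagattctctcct

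The site in LINC02210-CRHR1 held 2 AP-1 motifs and was the only one of the 452 identical members with more than 1. CRHR1 encodes a receptor for corticotropin-releasing hormone. The site in LMNA, the gene of the nuclear lamins A and C, lay 3.20 kb from the nearest peak of at least 250 bp. Among all 934 members, 56 held at least 1 AP-1 motif and 2 held more than 1. Of these 56, 30 lay in introns, 22 between genes and 4 in exons, 1 was in a promoter window, and the central 24 bases of 53 occurred once in the genome. Their median distance to the TSS of a protein-coding gene was 36.3 kb, and 14 lay more than 100 kb away. None of the 56 lay within 1 Mb of an assembly gap of 1 Mb or more. Among all 799 members that far from such gaps, 56.6% were in introns, 33.3% between genes, 10.1% in exons and 9.01% in promoter windows. The central 24 bases recurred in 24.9% of the 799, their median distance was 37.1 kb and 30.2% lay over 100 kb away.

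Members that hold AP-1 together with GGAATG or its reverse complement CATTCC, the core read by TEAD factors of the Hippo pathway, were looked at next. The 3 members identical in both lists with both are shown with both motifs in capitals.
Intron of LINC02262, chr4:118246202-118246301: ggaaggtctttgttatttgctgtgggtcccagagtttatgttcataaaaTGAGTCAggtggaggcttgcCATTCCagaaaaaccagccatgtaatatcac
Intron of RXFP2, chr13:32330602-32330701: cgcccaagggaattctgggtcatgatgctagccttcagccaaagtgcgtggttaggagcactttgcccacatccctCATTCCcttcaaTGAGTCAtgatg
Between genes, EFNB2 nearest, chr13:106803702-106803801: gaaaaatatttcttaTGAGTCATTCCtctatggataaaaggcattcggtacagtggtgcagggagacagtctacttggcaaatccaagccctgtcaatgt

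In the site whose nearest coding gene is EFNB2, the gene of ephrin-B2, the motifs share bases and form 1 unbroken run. This site lay 0.0500 kb from a peak of at least 250 bp in siFra-1 and 194.6 kb from the nearest one in siCTL. In all, 8 members (0.857%) held AP-1 and TEAD motifs against 97 of 66455 siCTL peaks without overlap (0.146%), which is 0.711 percentage points more (Newcombe's interval ran from 0.287 to 1.54). Of 100 bp siCTL peaks overlapped by a wider siFra-1 peak, 12 of 1653 held both (0.726%). Members minus these gave 0.131 percentage points, with an interval that includes 0 (-0.554 to 1.01). Each motif alone was also more frequent in members than without overlap, AP-1 with 6.0% against 2.05% and TEAD with 10.9% against 5.87%. Whether the pair exceeded what these single shares give was not tested.

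To see how sharply the rule divides the peaks, pairs of 100 bp peaks were counted by the distance between their starts. Starts coincided in 452 pairs, and the siFra-1 peak lay 50 bp to the left in 234 and 50 bp to the right in 248. Members were thus 48.4% identical (45.2% to 51.6%) and 51.6% shifted by 1 bin. Just outside the rule, where peaks touch without sharing a base, there were 160 pairs at 100 bp to the left and 157 to the right. At 150 bp there were 124 and 147, and at 200 bp 138 and 117. From 500 to 1000 bp the count was 71 to 105 over 22 offsets, with a median of 92.0. The count at 200 bp was below that at 0 and 50 bp on both sides and still above the range of the distant offsets, outside the members.

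**Figure D1:**
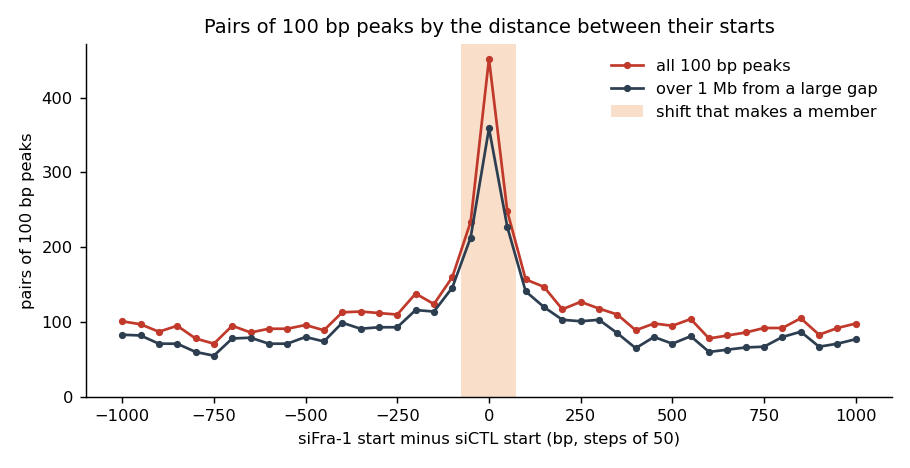
Number of pairs of 100 bp peaks (y axis) against the siFra-1 start minus the siCTL start in bp (x axis), for all pairs and for siCTL peaks over 1 Mb from a gap of 1 Mb or more in the assembly. The shaded offsets make a member, with 452 pairs at 0 bp, 234 and 248 at 50 bp, and 71 to 105 from 500 bp outwards.

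A further 1653 of the 100 bp siCTL peaks were overlapped by a wider siFra-1 peak and are not members. For 373 of these the widest siFra-1 peak measured 150 bp, for 219 it measured 200 bp, and for 1061 (64.2%) it was 250 bp or more. The other 66455 (96.3%) had no siFra-1 overlap.

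Of the shares compared, those for nearness to other peaks differed most between members and peaks without overlap. A peak of at least 250 bp in either list lay within 10 kb of 294 members (31.5%) and of 5675 peaks without overlap (8.54%), a difference of 22.9 percentage points (20.0 to 26). The median distance to such a peak was 50.8 kb for members and 186 kb for the others. The share of members rose stepwise with nearness. Leaving out peaks under a wider siFra-1 peak, 220 of 28511 peaks over 250 kb from a wide peak were members (0.772%), then 1.10% from 50 to 250 kb, 1.67% from 10 to 50 kb, 2.84% from 2 to 10 kb and 6.32% from 0.5 to 2 kb. Within 0.5 kb the share was 10.1% (8.41% to 12%), with 108 members of 1072 peaks. These neighbours come from the same 2 lists as the members, so this is not a measurement independent of the rule.

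**Figure D2:**
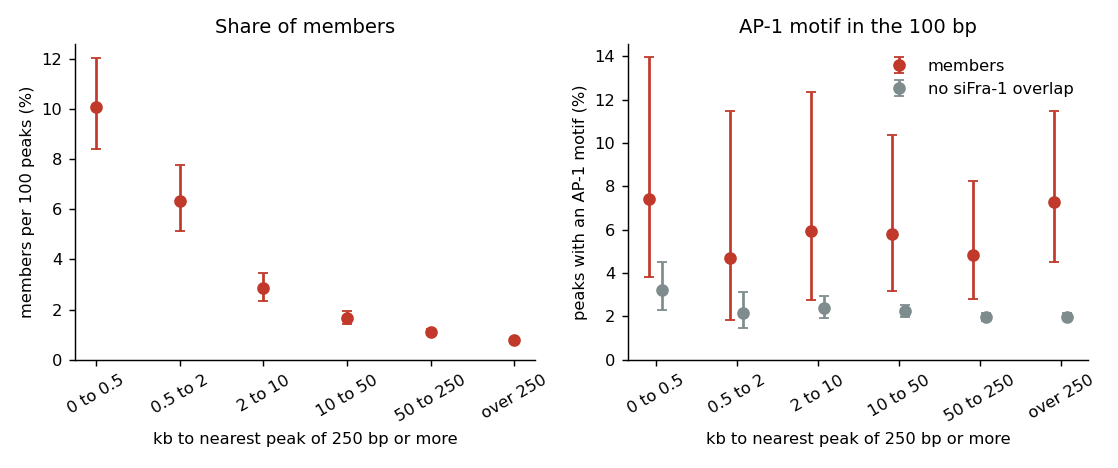
Left, members per 100 of the 100 bp siCTL peaks (%), leaving out those under a wider siFra-1 peak, by distance in kb to the nearest peak of 250 bp or more. Right, the percent of peaks with an AP-1 motif at the same distances, for members and for peaks without siFra-1 overlap. Points are shares and bars Wilson 95% intervals. The share of members falls from 10.1% to 0.772%, while the AP-1 share of members is 7.41% in the nearest class and 7.27% in the farthest.

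Other peaks, counted here at any width and so including the wide ones, were also close. Another siCTL peak lay within 10 kb of 722 members (77.3%) against 54.3% of peaks without overlap, and a siFra-1 peak other than the partner within 10 kb of 595 (63.7%) against 32.1%. A wide siCTL peak was within 10 kb of 23% of members and a wide siFra-1 peak of 28.2%. Among peaks without overlap these shares were 5.53% and 7.12%. Peaks under a wider siFra-1 peak had closer neighbours than members. A wide siCTL peak lay within 10 kb of 39.4% of them, another siCTL peak of 84.6% and another siFra-1 peak of 75.7%. Members minus these gave -16.4 (-19.9 to -12.8), -7.33 (-10.6 to -4.18) and -12.0 (-15.8 to -8.34) percentage points.

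Some members sat beside unsequenced parts of chromosomes, chiefly centromeres, where the reference ends in long runs of satellite repeats. Gaps of 1 Mb or more are called large here. Closer than 1 Mb to one lay 135 members (14.5%) and 1561 peaks without overlap (2.35%), a difference of 12.1 percentage points (9.99 to 14.5). Without peaks whose central 24 bases recur in the genome it was 2.72 (1.47 to 4.54). The peaks under a wider siFra-1 peak were there in 15.7% of cases, 1.21 percentage points more than members (interval of members minus these -4.01 to 1.71). Among the 135 members 122 lay between genes, 93 were identical in both lists, and the central 24 bases of 111 recurred in the genome. Their G+C content was 39.7% ± 6.11 (SD over 135 peaks). None held an AP-1 motif (0 of 135, Wilson upper bound 2.77%), against 20 of 1561 peaks without overlap in these places. Identity was more frequent here, as 20.6% of identical and 8.71% of shifted members lay within 1 Mb of a gap, a difference of 11.9 percentage points (7.37 to 16.4).

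The satellite unit GGAAT was present at least 3 times in 51 members (5.46%) and in 259 peaks without overlap (0.390%). It was also present in 103 of 1653 peaks under a wider siFra-1 peak (6.23%), and members minus these gave -0.771 percentage points (-2.58 to 1.19). Of the 51, 42 lay within 1 Mb of a gap. Because GGAAT repeats spell the TEAD core, TEAD counts near gaps can be counts of satellite. The first member in genome order of the largest group of members is shown with GGAATG and CATTCC in capitals, and was chosen after its values were seen.
Between genes, CWH43 nearest, chr4:49102002-49102101: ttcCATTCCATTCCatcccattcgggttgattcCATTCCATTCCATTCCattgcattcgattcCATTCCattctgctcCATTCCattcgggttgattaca

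This group held 13 members in 52.3 kb of chromosome 4, 505.9 kb from a gap, with GGAAT repeats in all 13 and no protein-coding gene inside it. CWH43, a gene linked to lipid remodelling of membrane anchors, was the nearest at 37.9 kb from the group. When members at most 50 kb apart were joined, the 934 formed 800 groups, of which 716 were single sites. The 10 taken as largest held 59 members (6.32%), and 8 of them had a member within 1 Mb of a large gap. Groups of 3 members numbered 13, and the 2 with the shortest span entered the 10. None of the 10 overlapped a protein-coding gene, whereas the groups of 3 at LMNA, REXO1L1, UQCC1 and GNG7, left out by this tie-break, did. After chromosome 4 came chromosome X with 8 members at 61685902-61791551, chromosome 21 with 7 at 10700952-10797651 and chromosome 16 with 6 at 46407202-46454551. Chromosome 7 had 4 members at 61744902-61826401, chromosome 12 had 3 at 38042952-38047651 and chromosome 10 had 3 at 42395502-42402151. Chromosome 8 had a group of 4 at 43809352-43835101 near its large gap. Outside these places were a second group on chromosome 16, with 4 members at 33958502-33988501, and 7 members on chromosome 8 at 86731752-86833501, among copies of REXO1L pseudogenes. The second group on chromosome 16 lay 1297 kb from a large gap. The central 24 bases of each of its 4 members recurred, up to 90 times, and those of each of the 7 on chromosome 8 up to 289 times. The part of repeated sequence in these members being called in both lists was not tested.

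By chromosome the share of 100 bp siCTL peaks that were members ran from 0.808% on chromosome 13 to 3.24% on chromosome X, where 10 of 13 members lay near the large gap. Chromosome 21 followed with 2.81% (14 of 19 near the gap). Without peaks near large gaps chromosome X fell to 0.923% and chromosome 21 to 1.01%, and the range ran from 0.731% on chromosome 14 to 2.19% on chromosome 19, which is rich in genes.

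**Figure D3:**
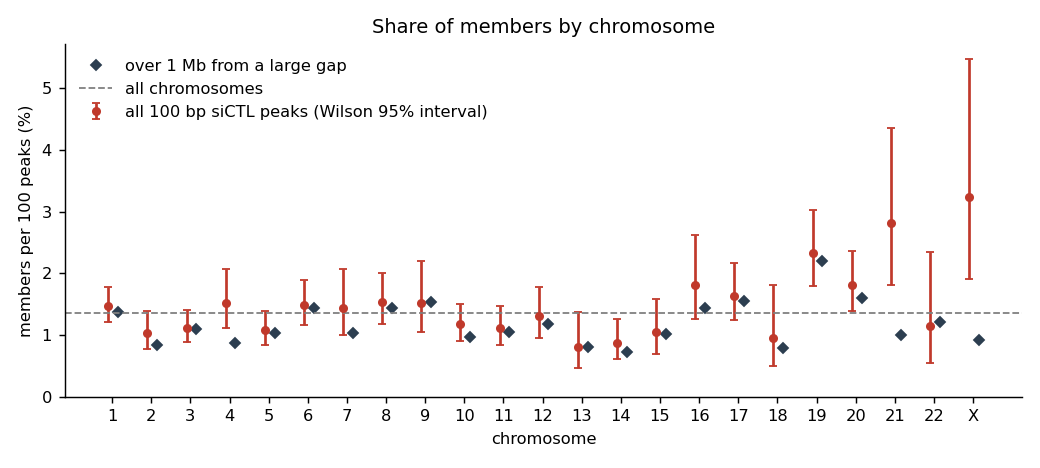
Members per 100 of the 100 bp siCTL peaks (%) on each chromosome, for all peaks with Wilson 95% intervals and for peaks over 1 Mb from a large gap (diamonds). The dashed line is the share over all chromosomes, 1.35%. Chromosomes X and 21 stand at 3.24% and 2.81% and drop to 0.923% and 1.01% away from gaps, while chromosome 19 stays at 2.19%.

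The AP-1 motif was more frequent in members than in peaks without overlap. It was found in 56 of 934 members (6.0%, 4.65% to 7.70%) and in 1364 of 66455 others (2.05%), a difference of 3.94 percentage points (2.59 to 5.66). Over 1 Mb from large gaps the shares were 7.01% and 2.07%, a difference of 4.94 (3.36 to 6.92). Of 100 bp siCTL peaks with the motif 3.61% were members, beside 1.35% of all. The motif share was higher in members on 17 of 23 chromosomes, and 3 chromosomes (16, 21 and 22) had no member with it.

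With growing width in siFra-1 and siCTL the motif became more frequent still. Away from large gaps it was present in 9.33% of 100 bp siCTL peaks under a wider siFra-1 peak, a difference from members whose interval includes 0 (members minus these -2.32 percentage points, -4.59 to 0.121). In the central 100 bp it was present in 11.8% (10.4% to 13.4%) of overlapped siCTL peaks of 150 or 200 bp and in 20.5% (19.1% to 22%) of those of 250 bp or more. Members stood between the peaks without overlap and the wide ones.

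The motif was more frequent at the member sites than in the region around them. In 100 bp windows moved by 500 to 1000 bp to either side, 1.80% held the motif beside 7.01% at the members themselves, and the 12 moved windows ranged from 1.25% to 2.38%. For peaks without overlap the same shares were 1.61% and 2.07%. In the windows next to the members they were 4.63% on the left and 4.88% on the right.

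**Figure D4:**
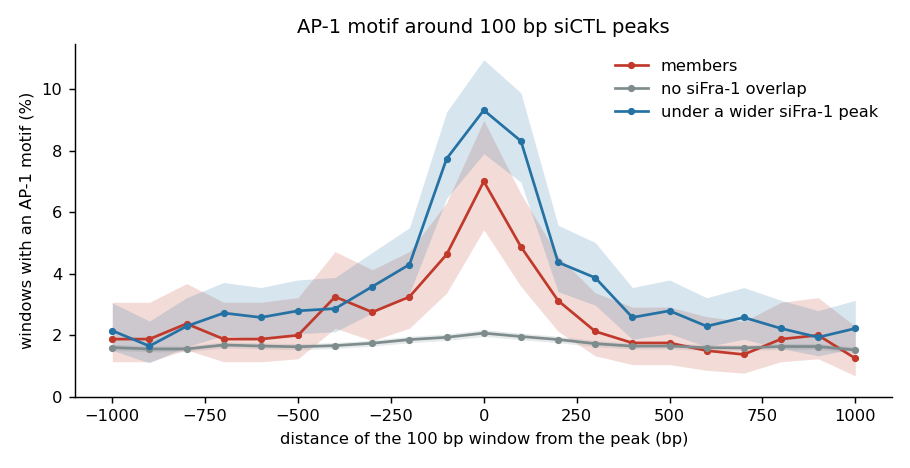
Percent of 100 bp windows with TGAGTCA or TGACTCA (y axis) by their distance in bp from the 100 bp siCTL peak (x axis), over 1 Mb from large gaps. Lines are the 799 members, the 64894 peaks without siFra-1 overlap and the 1394 under a wider siFra-1 peak, with Wilson 95% intervals shaded. Members rise from 1.80% at 500 to 1000 bp to 7.01% at the peak, against 1.61% and 2.07% without overlap.

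The motif share of members showed no steady trend with distance to wide peaks. Without peaks within 10 kb of a peak of at least 250 bp the difference from peaks without overlap was 3.92 percentage points (2.34 to 6.03). Members over 250 kb from a wide peak held it in 16 of 220 cases (7.27%, 4.53% to 11.5%), against 1.98% without overlap at that distance. In identical members the motif was in 24 of 452 (5.31%) and in shifted ones in 32 of 482 (6.64%), with a difference of -1.33 percentage points (-4.43 to 1.78). When the siFra-1 position of each member was read in its place, 44 of 934 (4.71%) held the motif, against 628 of 25645 siFra-1 peaks of 100 bp without siCTL overlap (2.45%), a difference of 2.26 (1.06 to 3.83). In shifted members 18 motifs lay wholly in the 50 bp covered by siCTL alone, 12 in the shared 50 bp, 9 in the 50 bp covered by siFra-1 alone and 3 across an edge. The difference between siCTL alone and siFra-1 alone, 1.87 motifs per 100 members, had an interval of -0.265 to 4.14.

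Sequence context differed as well. Mean G+C content was 47.6% ± 9.98 (SD over 934 peaks) in members and 44.5% ± 9.90 (SD over 66455) without overlap, a difference of 3.06 percentage points (2.41 to 3.70), and it was higher in members on 20 of 23 chromosomes (not on 16, 21 and X). Over 1 Mb from gaps the difference was 4.33 (3.64 to 5.02). Members held 1.82 CpG per 100 bp against 1.22, a difference of 0.603 (0.464 to 0.743). Against the peaks under a wider siFra-1 peak the difference in G+C was -0.188 (-0.979 to 0.603). The central 24 bases recurred in the genome in 310 members (33.2%) and in 22.4% of peaks without overlap. Away from gaps these shares were 24.9% and 21.4%, a difference of 3.49 (0.600 to 6.62). Under a wider siFra-1 peak the central 24 bases recurred in 22.7%, and members minus these gave 10.4 (6.84 to 14.1). Away from gaps that class had 11.3%, and members minus these gave 13.6 (10.2 to 17.1).

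Of 14 motifs matched as fixed letters on both strands, 4 had an interval of the difference above 0 and 2 had one below 0. Those above were AP-1, TEAD, ETS (CCGGAA) and SP/KLF (GGGCGGG), and those below were the E-box CAGGTG read by ZEB and SNAI repressors and AGATAA, read by factors of the GATA family. Away from large gaps the last 2 no longer had an interval below 0, and the core AGGGGGC of the insulator protein CTCF joined the first group. The other motifs were the cyclic AMP response element (TGACGTCA), RUNX (TGTGGTT), C/EBP (TTGCNNAA), NF-kB (GGGANTTTC), the E-box CACGTG, FOX (TGTTTAC) and STAT (TTCCNGGAA, which can overlap ETS), and their intervals included 0. Without gaps and promoters that of STAT lay above 0 (0.420, 0.0243 to 1.33), with 5 members. A match says that the letters are present, not that a factor was bound, and 584 members (62.5%) held none of the 14. Without overlap 68.0% held none, and members minus these gave -5.48 percentage points (-8.65 to -2.41). Under a wider siFra-1 peak 56.4% held none, and members minus these gave 6.14 (2.20 to 10.0).

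Away from gaps TEAD was in 69 of 799 members (8.64%) against 5.73%, a difference of 2.90 percentage points (1.14 to 5.06). Under a wider siFra-1 peak it was in 11.4%, and members minus these gave -2.77 (-5.27 to -0.111). ETS was in 21 members (2.63%) against 0.794%, a difference of 1.83 (0.929 to 3.19). SP/KLF was in 15 (1.88%) against 0.641%, a difference of 1.24 (0.497 to 2.43). CTCF was in 16 (2.0%) against 1.16%, a difference of 0.847 (0.0759 to 2.07). Under a wider siFra-1 peak ETS was in 2.80%, SP/KLF in 2.15% and CTCF in 1.58%. Members minus these gave -0.169 (-1.52 to 1.38), -0.275 (-1.44 to 1.08) and 0.424 (-0.683 to 1.76), so members did not stand apart from that class. RUNX was in 2.38% of members, less than the 4.16% under a wider siFra-1 peak by 1.78 percentage points (interval of members minus these -3.24 to -0.180), and FOX in 1.38% against 3.30%, a difference of -1.92 (-3.16 to -0.576). Without promoters as well, the difference from the peaks under a wider siFra-1 peak was -2.14 (-4.79 to 0.692) for TEAD and -1.62 (-3.16 to 0.101) for RUNX, with intervals that include 0, and -1.88 (-3.14 to -0.469) for FOX. The cyclic AMP response element was in 0 of 934 members (Wilson upper bound 0.410%) and in 42 of 66455 peaks without overlap (0.0632%).

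**Figure D5:**
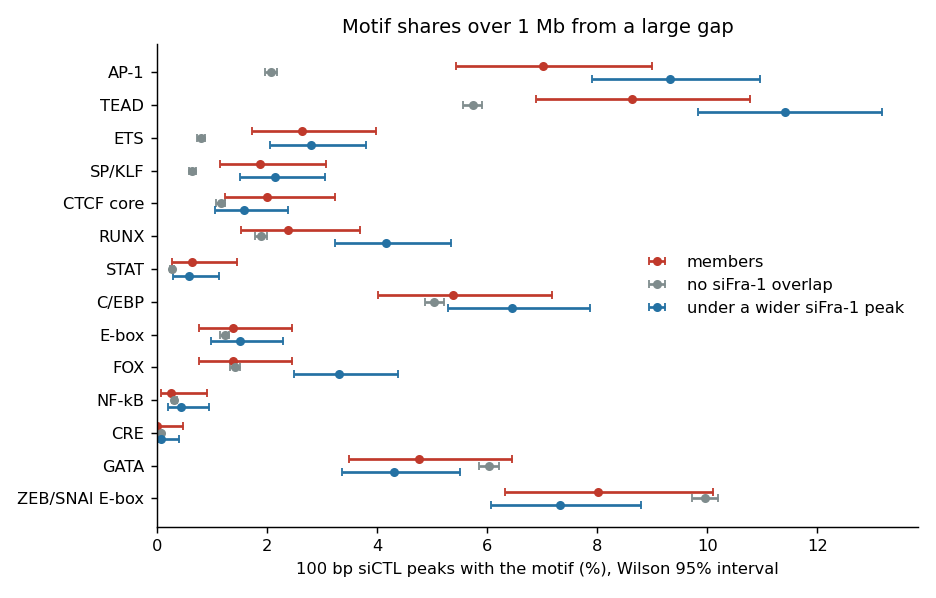
Percent of 100 bp siCTL peaks with each of 14 motifs (x axis), over 1 Mb from large gaps, for members, peaks without siFra-1 overlap and peaks under a wider siFra-1 peak. Points are shares and bars Wilson 95% intervals. Members lie above the peaks without overlap for AP-1 (7.01% against 2.07%), TEAD, ETS and SP/KLF, and below the peaks under a wider siFra-1 peak for TEAD (8.64% against 11.4%), RUNX and FOX.

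CTCF-core members identical in both lists number 10. Of the first 4 by genome order 1 is the LMNA site printed above, and the others are shown with AGGGGGC or GCCCCCT in capitals.
Intron of KIAA0232, chr4:6881602-6881701: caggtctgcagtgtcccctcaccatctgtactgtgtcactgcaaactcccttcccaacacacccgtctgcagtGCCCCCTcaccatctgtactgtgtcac
Intron of XRCC4, chr5:82392252-82392351: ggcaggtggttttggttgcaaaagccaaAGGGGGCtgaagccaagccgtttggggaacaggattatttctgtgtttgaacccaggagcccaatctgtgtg
Intron of STX1A, chr7:73120752-73120851: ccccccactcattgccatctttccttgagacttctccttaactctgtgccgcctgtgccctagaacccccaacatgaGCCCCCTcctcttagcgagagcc

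XRCC4 acts in the joining of broken DNA ends, and STX1A encodes a syntaxin of vesicle fusion. The central 24 bases of the site in KIAA0232 occurred 6 times in the genome and those of the other 2 sites once. The STX1A site lay 9.15 kb from a wide peak in both conditions.

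Against genes, members were more often in promoters. A promoter was taken as the 3 kb window centred on a protein-coding TSS. It was overlapped by 72 members (7.71%) and by 2450 peaks without overlap (3.69%), a difference of 4.02 percentage points (2.47 to 5.92). Members also exceeded the peaks under a wider siFra-1 peak (4.36%) by 3.35 (1.46 to 5.44). The share was 5.03% in overlapped siCTL peaks of 150 or 200 bp and 4.39% in those of 250 bp or more. On the siFra-1 side the gap was smaller. There 58 of 852 peaks of 100 bp under a wider siCTL peak were in promoters (6.81%, 5.30% to 8.70%), beside 7.82% of the partners of members. All 72 members in promoters lay over 1 Mb from large gaps, where the share of members was 9.01%. They lay close to the start more often, as 37 of 72 (51.4%) had their centre within 0.5 kb of the TSS against 37.5% of promoter peaks without overlap, a difference of 13.9 (2.44 to 25.3). Mean G+C was 58.0% ± 10.3 (SD over 72 peaks) against 53.7% ± 11.2 (SD over 2450). ETS was in 7 of the 72 (9.72%) against 87 of 2450 promoter peaks without overlap (3.55%), a difference of 6.17 (1.17 to 15.2). SP/KLF was in 7 against 97 (3.96%), a difference of 5.76 (0.758 to 14.8). AP-1 was in 1 (1.39%) against 30 (1.22%), a difference of 0.164 (-1.09 to 6.24), and the 1 was at TMCC2, 1.08 kb from its TSS.

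None of the 35 promoter members identical in both lists held AP-1, so the 12 nearest to a TSS are named. The site of POC1B, a centriole protein, had its centre 0.0220 kb from the TSS and held 1 ETS motif. SFSWAP, a regulator of splicing, followed at 0.0240 kb with 2 ETS motifs, and PSAP, the precursor of lysosomal saposins, at 0.0560 kb. AIFM2, a suppressor of ferroptosis, had its member at 0.112 kb and TOP2A, the topoisomerase of dividing cells, at 0.146 kb. NDUFS7, a subunit of respiratory complex I, carried 2 of the 12, at 0.176 and 0.326 kb. The remaining 5 were ZNF250 at 0.199 kb, AANAT of melatonin synthesis at 0.219 kb, AP3D1 of an adaptor complex at 0.285 kb, ZNF724 at 0.294 kb and ATP6V0E1, a proton pump subunit, at 0.328 kb. The closest wide peak to any of the 12 was 4.25 kb away, at AP3D1.

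Centres lay in introns in 462 members (49.5%, against 57.9% without overlap), between genes in 388 (41.5%) and in exons in 84 (8.99%). The intergenic share exceeded that of peaks without overlap (34.8%) by 6.77 percentage points (3.63 to 9.98). This rested on the sites near gaps, for without them it was 33.3% against 34.0%, a difference of -0.715 (-3.92 to 2.65). Over all peaks the median distance to a TSS was 50.7 kb in members and 61.3 kb without overlap, and 39.2% against 39.0% lay over 100 kb from any, a difference of 0.187 (-2.92 to 3.38). Away from gaps the median was 37.1 kb in members and 59.2 kb without overlap, and 30.2% against 38.1% lay over 100 kb away, a difference of -7.97 (-11.1 to -4.68). There, peaks under a wider siFra-1 peak had a median of 49.3 kb, and 30.2% lay over 100 kb away. For that share members minus these gave -0.0382 percentage points (-3.98 to 3.99).

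Members were spread thinly over genes. A member lay within 100 kb of the TSS of 1695 of 20090 protein-coding gene symbols, and of 1448 of these there was 1. The highest number was 4, at 6 neighbouring genes of chromosome 6 (CLIC1, MSH5, MSH5-SAPCD1, SAPCD1, VARS1 and VWA7). In LMNA 3 members lay within 10.9 kb.

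Of 160 genes in 11 lists tied to Fra-1, breast cancer and the study, 140 had no member within 100 kb and 20 had 1, so none had 2 or more. Over all 20090 protein-coding gene symbols, 8.44% had a member at that distance. The share of 100 bp siCTL peaks near the list genes that were members had an interval that included the overall 1.35% in each of the 11 lists at 100 kb. At 250 kb that of chemokines and cytokines did not, with 7 of 198 (3.54%, 1.72% to 7.12%). These 7 members lay near 3 of the 14 genes of the list, so they are not independent and this interval is too narrow. At 100 kb the share ran from 0 of 54 peaks near mesenchymal transition factors (0%, upper bound 6.64%) to 2 of 69 near acetyltransferases (2.90%, 0.799% to 9.97%). Near the 34 viewpoint genes of the study it was 3 of 364 (0.824%, 0.281% to 2.39%), and near 10 AP-1 genes 2 of 99 (2.02%, 0.556% to 7.07%).

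The following sites near list genes were named after their values were seen. FOSL1 itself had 1 member, 12.6 kb upstream, between genes and 1.00 kb from wide peaks of both lists. It spanned 65680552-65680651 of chromosome 11 in siCTL and 65680602-65680701 in siFra-1, and its AP-1 motif lay in the 50 bp covered by siCTL alone. FOSB, another Fos family gene, had 1 member 24.2 kb upstream, in an intron of ERCC1. Around these genes lay 12 and 12 narrow siCTL peaks without overlap.

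Among adhesion genes, the site of CAV1, the gene of caveolin-1, was identical in both lists at chr7:116161252-116161351. It lay 3.75 kb upstream, and wide peaks were 1.00 kb away in siCTL and 1.05 kb in siFra-1. ITGA6, an integrin subunit, had a member 12 kb inside the gene, and those near TLN1 and PXN were 82.2 and 67.3 kb from the TSS, at other genes. SMAD3, a mediator of TGF-beta signals, had a member in an intron 84.9 kb from the TSS with a TEAD motif, and 1.25 kb from wide peaks of both lists. The member near ANKRD1, a target of the Hippo effectors, was identical in both lists, 87.8 kb from the TSS in an intron of HTR7.

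The acetyltransferase genes CREBBP and KAT6B had 1 each. The CREBBP site, in an intron of the gene of CBP itself, lay 31.3 kb from the TSS in a repeat of alternating G and T whose central 24 bases were counted 351649 times in the genome. The KAT6B site was 2.73 kb upstream. Members near LIF (40.4 kb), IL11 (19.6 kb), PLAUR (15.1 kb), COL1A1 (65.5 kb), TGFBR3 (96.1 kb) and ID1 (91.7 kb) held no AP-1 motif. The central 24 bases of those near LIF, TGFBR3 and ID1 recurred 889, 29484 and 93297 times. GALNT2, a viewpoint gene, had 1 with an AP-1 motif in an intron 56.0 kb from its TSS.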

How the data were processed

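p300/CBP ChIP-seq peaks of MDA-MB-231 cells were analysed. According to their methods the authors aligned reads to hg19 with BWA, whereas the submitters' processing notes name Bowtie2. They kept uniquely placed reads, made scaled, background-subtracted bins of 50 bp with PASHA and called runs above 25, with a gap and a run of 50 bp, in the Integrated Genome Browser. 1 unexplained parameter differs between the lists. The deposited lists give chromosome, start and end. They were read as BED intervals, and if the authors counted from 1 each printed start is 1 bp too high. The depth per sample is unknown. Scaling and a fixed threshold mean that a site just under 25 is absent from a list.

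Sequence came from GRCh37 and genes from GENCODE release 44 lifted to it (20098 protein-coding genes, TSS as the outer start of the gene). Shares have Wilson intervals, their differences Newcombe intervals and means normal-approximation intervals. Python 3.11.15, numpy 2.4.6, pandas 2.3.3, scipy 1.17.1 and matplotlib 3.10.9 were used, and the functions were tested on simulated data. Named items were the 10 largest groups of members, up to 12 promoter sites, up to 8 sites with most AP-1 motifs, sites with motif pairs or a CTCF core, and list genes with 2 or more members. The members, lists, motifs and rules were chosen with earlier results of these data known. Counts of the central 24 bases in the genome, moved windows, motifs in promoter peaks, shares over all coding genes, and the alternatives without promoters or recurring sequence were added after seeing the data.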

Additional observations from a re-analysis of the deposited data

How the results depend on the processing

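No paired analysis was possible because each condition is 1 library. The number of members was 452 with identical peaks alone and 2587 when a siFra-1 peak of any width counted. Under the other 4 alternatives it was 799 to 1394. The intergenic difference turned to -0.715 percentage points without peaks near large gaps and to -1.88 without recurring sequence (added after seeing the data), and fell to 1.06 (-2.27 to 4.50) with 1 peak per 100 kb, which thins the groups near gaps. The differences in AP-1 (2.26 to 9.18), promoters (2.97 to 6.59), large gaps (2.72 to 18.2), G+C (2.39 to 4.72) and wide peaks (17.3 to 26.1) kept their direction and an interval above 0 under each alternative run for them. Of the other motifs, RUNX turned to -0.350 and NF-kB to 0.128 in 200 bp, and the CACGTG E-box to 0.150 without peaks near gaps, 0.275 in 200 bp and 0.184 without gaps and promoters, all with intervals that include 0. Without gaps and promoters ETS (1.24) and SP/KLF (0.590) kept an interval above 0, and STAT (0.420, 0.0243 to 1.33) and the CTCF core (0.981) had one that the comparison of all peaks lacked. The gap difference was lowest, 2.72, without recurring sequence. Of 22 gene list shares at 50 or 250 kb, 2 moved outside the 100 kb interval, those of Hippo and TGF-beta genes, both with 0 members at 50 kb. The share of chemokines and cytokines at 250 kb (3.54%, 1.72% to 7.12%) stayed inside its 100 kb interval, but its own interval no longer included the overall 1.35%. Its 7 members lay near 3 of 14 genes. Depth is unknown, so a site absent from a list cannot be told from one just under the threshold.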

Other observations

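Loci of the mesenchymal-like class to which the line belongs and of luminal breast epithelium were counted as places, since a peak is no measure of expression. Of 6 mesenchymal-like genes, 3 had a member within 100 kb (AXL, CAV1 and FOSL1), and at the same distance 6 had a wide siCTL peak and 5 a wide siFra-1 peak. Of 12 luminal genes, 2 had one, KRT8 and KRT18, which share a single site in an intron of KRT8, and 4 had a wide siCTL peak and 5 a wide siFra-1 peak. Of all 20090 protein-coding gene symbols, 8.44% had a member within 100 kb, 22.3% a wide siCTL peak and 26.7% a wide siFra-1 peak. AXL, a receptor tyrosine kinase, had its member in an intron 3.22 kb from the TSS, shifted by 1 bin between the lists, 0.850 kb from a wide siCTL and 0.800 kb from a wide siFra-1 peak, with an ETS motif and no AP-1 motif.

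In 100 bp siFra-1 peaks that lay under a wider siCTL peak, 89 of 852 held the AP-1 motif (10.4%, 8.57% to 12.7%), beside 4.71% of the siFra-1 partners of the members.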
